A study of Stropharia rugosoannulata with 3 samples.

Results

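Stretches of neighbouring gene models with few or no counts were examined in the interior of 16 contigs of the *Stropharia rugosoannulata* assembly. The members were chosen by their measured level. A gene model was a member if it lay on contigs 1 to 18 other than 12 and 15, was not among the first or last 20 models of its contig, and stood in a run of at least 3 consecutive models whose mean FPKM over the 3 libraries was below 1. FPKM is the number of sequenced fragments of a gene corrected for gene length and library depth. By this rule 808 of the 11750 models of the series were members, in 130 runs. The 16 contigs held 11053 models, of which 10413 were internal, that is outside the first and last 20. Of these internal models 1391 (13.4%) had a mean FPKM below 1, so the members were 58.1% of the low models and 7.76% of the internal models. A run is a description of these libraries, as the same FPKM values both found it and describe it, and no test is attached to its low level.

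All 3 libraries came from a single group, mycelium of the litter-decomposing mushroom *S. rugosoannulata* grown on plates of potato dextrose agar at 25 °C. The label titles name S68, a monokaryon raised from a single spore of the commercial cultivar, whereas the strain field and the paper's account of the RNA sequencing name the cultivar itself, “Heinong No. 1”. Nothing in the labels says that the libraries came from separate cultures, so the spread between them may be technical. With 1 growth condition, a low level here describes mycelium on this medium and says nothing about fruiting bodies or other substrates.

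In filamentous fungi, genes lie close together along the chromosomes, and many are transcribed in growing hyphae. Stretches that stay silent under a given condition are known from several settings. They include repeat-rich and condensed chromatin, the regions near telomeres, and clusters of genes for secondary metabolites or nutrient use that are switched on together under particular conditions. The files hold no functional annotation or genome coordinates, so the models are named here by their identifiers and ordered by the model number that their names carry.

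The libraries held 31831513, 30516180 and 29678333 counts. Low counts were mostly even (a count of 2 stood in 233 cells of the table and a count of 1 in 62), so a fragment was taken to add 2 counts, and the limit for a model at 0 was set at 3 fragments or 6 counts. For a model with the median number of counts per FPKM, 6 counts corresponded to 0.132, 0.138 and 0.141 FPKM in libraries 1, 2 and 3, and an FPKM of 1 to 45.6, 43.5 and 42.6 counts. The threshold of 1 FPKM was therefore well above the detection limit of these libraries for a model of ordinary length. These limits cover counting error only.

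Run lengths ranged from 3 to 36 models, with a median of 5. There were 30 runs of 3 models and 28 of 4, while 72 runs held at least 5, 17 at least 10, and 4 at least 20. The 72 runs of at least 5 models contained 606 of the 808 members. Outside the runs, the low internal models stood singly (375) or in pairs (208). Runs were more numerous than in a random order of the same models. With runs found among the internal models alone, 129 were present, and the number expected by formula for a random order within each contig was 33.4, a ratio of 3.86. At 5 or more models the numbers were 70 observed and 1.36 expected, and at 10 or more they were 15 and 0.00069. Single low models, in contrast, were fewer than in a random order (376 against 980.8). All 16 contigs had more runs than the formula gave. On several contigs the expected number was below 1, so that a single run exceeded it, as on contig 16 (1 run, 0.163 expected). On contig 13 the numbers of runs were close, with 5 runs and 4.10 expected. Those 5 runs were long, however, the longest of 30 models, and held 61 of the 79 low models of the contig. A number of runs does not show how many models they hold. Over all 16 contigs, 807 internal models stood in runs of at least 3, and 108.5 were expected. The formula takes low models to be equally likely at each place of a contig, and an uneven density within contigs was not allowed for. The expected numbers are a reference for reading the counts, with no p attached.

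**Figure D1:**
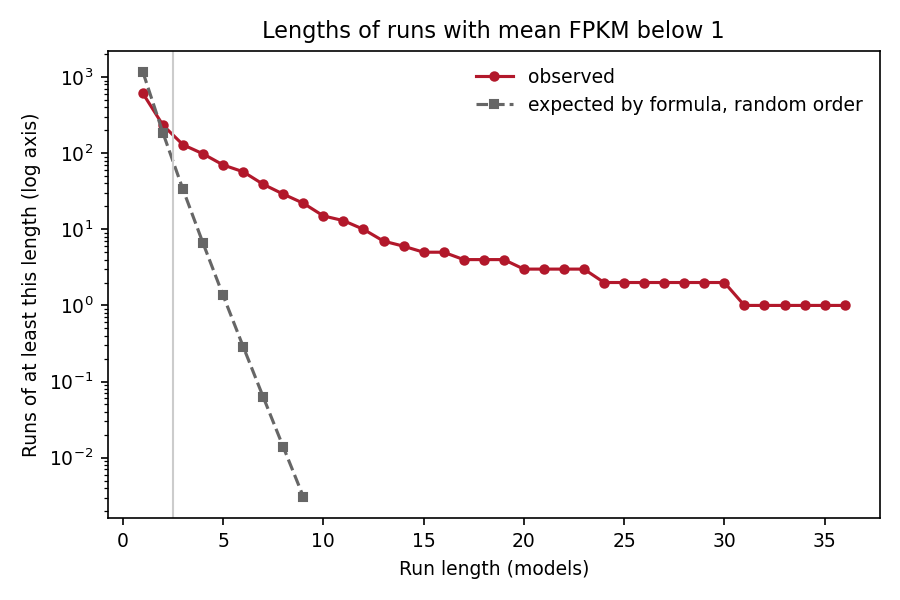
Number of runs of at least a given length (y, log axis) against run length in models (x), among internal models with a mean FPKM below 1, with circles for the observed number and squares for the number expected by formula in random order, drawn to a length of 9 models. The grey vertical line parts the lengths below 3 models, and to its right the observed numbers (129 at 3 models, 70 at 5) lie above the expected ones (33.4 and 1.36).

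The longest run lay on contig 9 and reached over 36 models, from SRUG_07968 (model 47) to SRUG_08003 (model 83). Of its members 31 had no count in any library. Reads were assigned to 4, 3 and 5 of its members in libraries 1, 2 and 3, and the counts of the whole run were 67, 145 and 76. Most of these were on the last model, SRUG_08003, with 53, 125 and 58 counts and 0.436, 1.09 and 0.518 FPKM (mean 0.682 ± 0.357, SD, n = 3). SRUG_08003 passed an FPKM of 1 in library 2 alone. The neighbours of the run were themselves low, with SRUG_07967 at 5.09 FPKM before it and SRUG_08004 at 3.63 after it. Of the 40 models within 20 on either side, 23 were below an FPKM of 1, so that 59 of the 76 models in this window were low. Other runs stood close by, from SRUG_07958 to SRUG_07964 on one side and from SRUG_08011 to SRUG_08016 and SRUG_08019 to SRUG_08022 on the other. Well expressed models were placed among them, such as SRUG_07951 at 175 FPKM, SRUG_07957 at 75.8 and SRUG_08010 at 68.3.

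**Figure D2:**
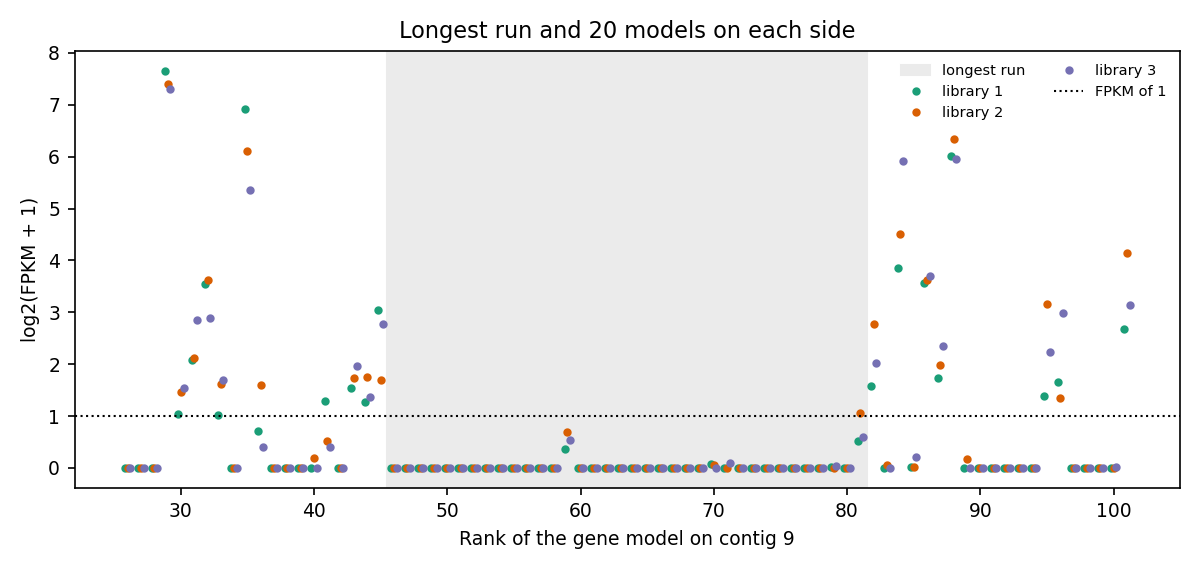
Level of each gene model as log2(FPKM + 1) (y) against its rank on contig 9 (x), with 1 point per library, for the longest run (grey band, 36 models) and 20 models on each side. The dotted line marks an FPKM of 1, above which the band holds only SRUG_08003 in library 2 (1.09), while 23 of the 40 models beside the band had a mean below it and SRUG_07951 reached 175 FPKM.

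The second longest run was on contig 13, where 30 models from SRUG_10283 (model 32) to SRUG_10312 (model 65) were low. It was not without counts, as 7 of its members had counts in each of the 3 libraries and the run held 87, 86 and 55 counts. Its first model, SRUG_10283, had 20, 36 and 12 counts, and its highest, SRUG_10287, had 1.40, 0.446 and 0.553 FPKM from 15, 5 and 6 counts. In the middle of the run, 18 models from SRUG_10291 to SRUG_10308 had no count in any library. Another run of 3 models, SRUG_10278 to SRUG_10280, was parted from it by 2 models.

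On contig 10, 23 models from SRUG_09064 (model 559) to SRUG_09086 (model 583) were low, and 22 of these had no count. All reads fell on SRUG_09072, with 8, 7 and 20 counts in libraries 1, 2 and 3, or 0.130, 0.114 and 0.353 FPKM. The run bordered on SRUG_09063 at 6.10 FPKM and on SRUG_09087 at 185 FPKM, so its edges were of unlike level.

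The next 3 runs in length that lay wholly in the interior had no count, or 1 count. On contig 1, all 19 models from SRUG_00742 (model 747) to SRUG_00760 (model 766) had 0 counts in each library, the longest internal stretch of models without a count. SRUG_00741 before it had 38.4 FPKM and SRUG_00761 after it had 13.0. On contig 4, all 16 models from SRUG_04198 (model 386) to SRUG_04213 (model 405) had 0 counts, between SRUG_04197 at 82.4 FPKM and SRUG_04214 at 105 FPKM. Here the step from expressed to silent models was abrupt on both sides. On contig 14, 13 of the 14 models from SRUG_10743 to SRUG_10756 had no count, and SRUG_10754 had 1 count, in library 3. This run stood between models at 30.6 and 44.9 FPKM. The interior run after these, 13 models from SRUG_10518 to SRUG_10530 on contig 13, did have reads, with 33, 77 and 28 counts in libraries 1, 2 and 3, all on SRUG_10530, its last model.

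The other 4 runs among the 10 named as longest reached into the first or last 20 models of their contig, as 7 of the 130 runs did, and only their internal models are members. SRUG_06404 to SRUG_06409 on contig 6 were 6 members of a run of 21, none with a count. SRUG_10606 to SRUG_10617 on contig 14 were 12 members of a run of 17, 10 of them without a count, and SRUG_10617 had 2, 6 and 0 counts. SRUG_00021 to SRUG_00030 on contig 1 were 10 members of a run of 16, with counts on 6, of which SRUG_00027 was highest at 0.479, 0.798 and 0.0793 FPKM. SRUG_03839 to SRUG_03846 on contig 4 were 8 members of a run of 13, none with a count. It shared its length, the tenth in order, with SRUG_10518 to SRUG_10530, and was placed before it for its lower summed FPKM.

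Every one of the 16 contigs held at least 1 run, but the share of internal models in runs differed widely between them. It was highest on contig 13 (61 of 293, 20.8%), contig 9 (96 of 554, 17.3%) and contig 14 (33 of 206, 16.0%). It was lowest on contig 16 (5 of 212, 2.36%), contig 5 (29 of 976, 2.97%), contig 2 (40 of 1304, 3.07%) and contig 3 (36 of 1117, 3.22%). The share of low models, in runs or not, differed in much the same way. It was 27.0%, 23.6% and 19.9% on contigs 13, 9 and 14, and 9.91%, 5.94%, 7.13% and 5.82% on contigs 16, 5, 2 and 3. Contigs 7 (22.9%) and 6 (20.6%) had more low models than contig 14 but smaller shares in runs (12.4% and 12.2%). The only run of contig 16, SRUG_11182 to SRUG_11186, had no count in any library and stood between models at 43.1 and 38.5 FPKM. Contig 1 had the most runs, 18, with 98 members, followed by contig 6 with 16 runs and 78 members.

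**Figure D3:**
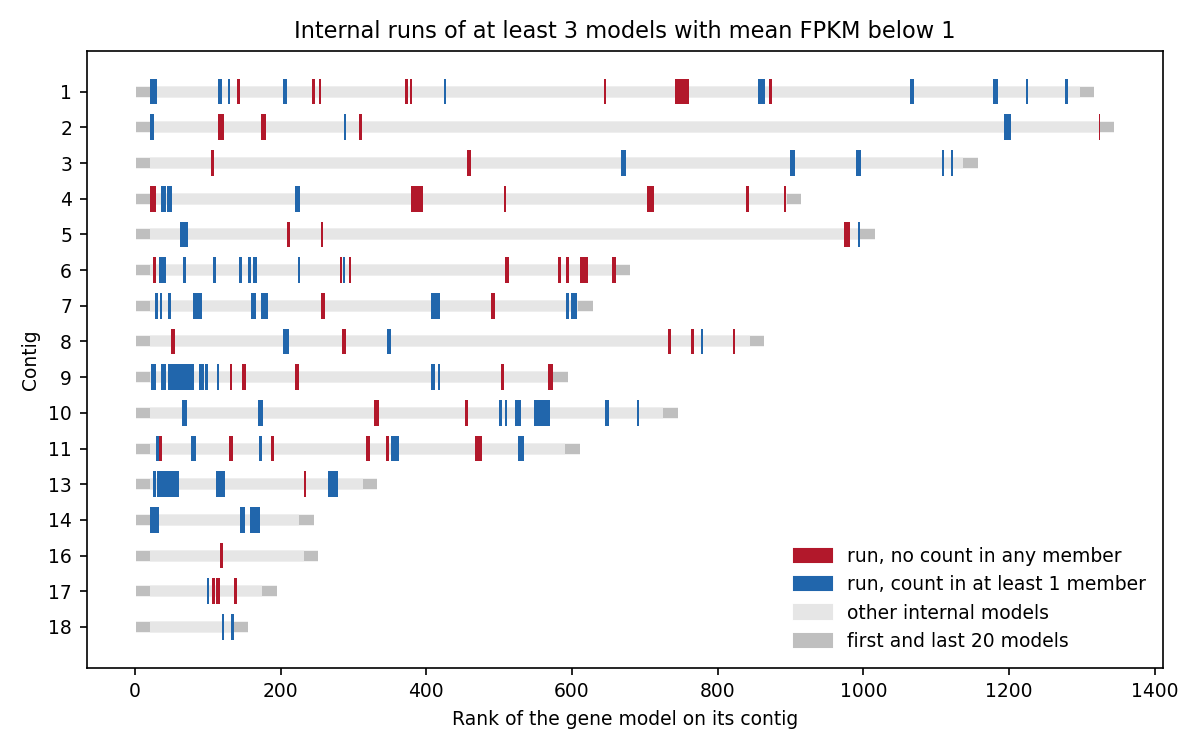
Place of the 130 internal runs on the 16 contigs (y), by rank of the gene model on its contig (x), with red for the 56 runs in which no member had a count and blue for the 74 in which at least 1 did. Light grey bars are the other internal models and darker ends the first and last 20 models, which were left out, and runs stand in every contig with the densest groups on contigs 9 and 13.

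The runs were more frequent toward the contig ends even after the 20 outermost models had been left out. Between rank 21 and 40 from the nearer end, 139 of 640 models were members (21.7%). The share was 12.8% at ranks 41 to 60, 12.9% from there to rank 100 and 8.06% from there to rank 200. Farther in, 232 of 5472 were members, or 4.24%. The low models as a whole, in runs or not, were also more frequent toward the ends. They were 203 of 640 at ranks 21 to 40, of which 139 were members, and 406 of 5472 beyond rank 200, of which 232 were members. The rise of the low models as a whole is thus largely that of the runs. The low models in no run were also more frequent toward the ends, so the rise is not confined to runs. Large contigs supply most of the models far from an end, so distance and contig are not separate in these shares. When the interior of each contig was divided into 5 equal parts by model order, the first held 285 members (13.6% of its models), the middle one 104 (4.99%) and the last 159 (7.66%). The direction in which a contig is numbered carries no biological order.

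Some runs stood near each other. Of the 114 pairs of successive runs on the same contig, 4 were parted by a single model, 18 by at most 5 and 33 by at most 10, while the median was 42.5 models and the largest distance 882. No expected distance was computed. Contigs with many runs, such as contig 6 with 16 runs among 640 internal models, leave short distances in any order. Whether runs lie closer than their number per contig gives was not tested. The pairs parted by 1 model were SRUG_03860 and SRUG_03862 on contig 4, SRUG_06033 and SRUG_06035 on contig 6, SRUG_09293 and SRUG_09295 on contig 11, and SRUG_11427 and SRUG_11429 on contig 17, giving the last model of one run and the first of the next. These pairs were named after their values were seen. When 1 model at or above the threshold was allowed inside a run, there were 160 runs with 955 low members.

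Most members had no count in these libraries. No count in any library was recorded for 671 of the 808 members (83.0%), against 8.14% of all internal models. Among the low models outside runs, 177 of 583 (30.4%) had none. The members thus held 79.1% of the 848 internal models without a count. Of the 130 runs, 56 had no count in any member (298 members), 39 had counts on a single member, and in 4 runs every member had counts. Since a low mean chose both kinds of low model, these shares are a description.

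The share without a count rose with the length of the stretch. It was 24.0% for single low models, 41.8% for pairs, 75.7% in runs of 3 or 4, 83.5% in runs of 5 to 9 and 88.2% in runs of 10 or more. The order was the same in each library taken alone, from 40%, 32.3% and 38.4% of single low models in libraries 1, 2 and 3 to 91.3%, 92.5% and 90.2% of the models in runs of 10 or more.

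The 137 members with a count had a median of the mean FPKM of 0.153, and 27 of them reached 0.5. Among the low models outside runs, the 406 with a count had a median of 0.288 FPKM. The members together took up 1143, 1962 and 1204 counts in libraries 1, 2 and 3, which is 0.00359%, 0.00643% and 0.00406% of all counts. Counts were found in all 3 libraries for 67 members, in 2 libraries for 30 and in a single library for 40. Of the latter, 8 were found in library 1, 19 in library 2 and 13 in library 3. Some counted members on different contigs had identical counts and FPKM in each library. SRUG_01607 and SRUG_05728 both had 0, 2 and 6 counts, and SRUG_07409 and SRUG_08686 both had 4, 0 and 4. Whether such models share reads was not tested.

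Members just inside the threshold were SRUG_07958 (0.994 FPKM), SRUG_08581 (0.994), SRUG_10530 (0.950), SRUG_11418 (0.944) and SRUG_05905 (0.935). The models just outside it, at the edges of runs, were SRUG_07790 (1.06 FPKM), SRUG_09016 (1.09), SRUG_05909 (1.12), SRUG_09337 (1.14) and SRUG_08341 (1.16). For each of these 10 models the SD between libraries was larger than the distance of the mean from the threshold. SRUG_08341, for example, had 0, 3.39 and 0.0952 FPKM in libraries 1, 2 and 3.

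A level of at least 1 FPKM in any library was seen for 25 members (3.09%), against 8.7% of all low internal models and 16.5% of those outside runs. Library 2 stood apart, with 17 members at or above 1 FPKM, 16 of them there alone, compared with 3 in library 1 and 6 in library 3. SRUG_08581 was the only member above 1 FPKM in 2 libraries, with 0.627, 1.08 and 1.28 FPKM from 38, 62 and 72 counts. It is the first model of a run of 7 on contig 10 in which the other 6 had no count. SRUG_11418 had the highest value of any member in a single library, with 0.208, 2.14 and 0.487 FPKM in libraries 1, 2 and 3, and was high in library 2. SRUG_05905 had 0.554, 0.218 and 2.03 FPKM and was high in library 3, while its 3 companions in the run had no count. SRUG_07958 had 0.638, 2.02 and 0.329 FPKM from 71, 213 and 34 counts, the most counts of these models. SRUG_08037 (0.521, 1.88 and 0.0728 FPKM) and SRUG_03771 (0.165, 1.90 and 0.153 FPKM) were high in library 2 and belong to the runs in which every member had counts.

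To read the runs in a library that had not chosen them, they were found again from the mean of 2 libraries and looked up in the third. With library 1 held out there were 795 members, of which 792 (99.6%) were below 1 FPKM in it. With library 3 held out there were 807, of which 794 (98.4%) were below 1 FPKM, and with library 2 held out 826, of which 799 (96.7%) were. The low models outside these runs stayed below 1 FPKM less often in the same libraries, at 94.0%, 83.4% and 88.6% for libraries 1, 2 and 3. Over all internal models the shares were 14.5%, 13.3% and 13.6%. As the libraries may be technical repeats, these shares describe the likeness of the libraries only. Members were also lower than the other low models from the start, with no count for 83.0% against 30.4%. Their higher share below 1 FPKM is therefore not a separate result. The highest values of a member in the library held out were 1.44 FPKM (SRUG_07963, library 1), 5.62 FPKM (SRUG_06486, library 2) and 3.70 FPKM (SRUG_09028, library 3).

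The models that adjoin a run were expressed at moderate levels, often lower than elsewhere. By the rule they are at or above 1 FPKM, and beside runs near a contig end they may lie among its first or last 20 models. The 256 adjoining models had a median of 19.95 FPKM, with 18.2, 20.5 and 21.1 in libraries 1, 2 and 3, and quartiles of 5.74 and 56.9. The 9022 internal models at or above 1 FPKM had a median of 33.6, with quartiles of 14.3 and 73.1. Below 10 FPKM were 34.0% of the adjoining models and 18.1% of all internal models above the threshold, and below 2 FPKM 8.59% and 2.88%. Both adjoining models had at least 10 FPKM at 58 runs, at 57 runs only one of them had, and at 15 runs neither had.

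Away from the edge low models were frequent at each distance up to 20 models. At a distance of 2 models, which the rule leaves free beyond the adjoining one, the median was 21.2 FPKM and 16.9% of the models were below 1 FPKM. At 5 models these values were 13.9 FPKM and 20.9%, at 10 models 16.4 FPKM and 20.8%, and at 20 models 21.7 FPKM and 21.5%. Among the 6175 internal models more than 20 models from any run, the median was 33.7 FPKM and 4.66% were below 1 FPKM. Members of runs cannot be among these by definition, so part of the difference follows from the rule. The models beside runs may also lie among the first or last 20 of their contig, which the far models do not. The share of low models differed between contigs, and contig was not held fixed in this comparison. Whether the difference is local to the runs was not tested. Over all internal models 13.4% were below 1 FPKM. The low models beside a run may belong to a further run or stand alone. Leaving them out, the median at 2, 5, 10 and 20 models was 27.0, 22.6, 29.7 and 34.2 FPKM, against 36.01 FPKM for the 5887 models above the threshold far from runs.

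**Figure D4:**
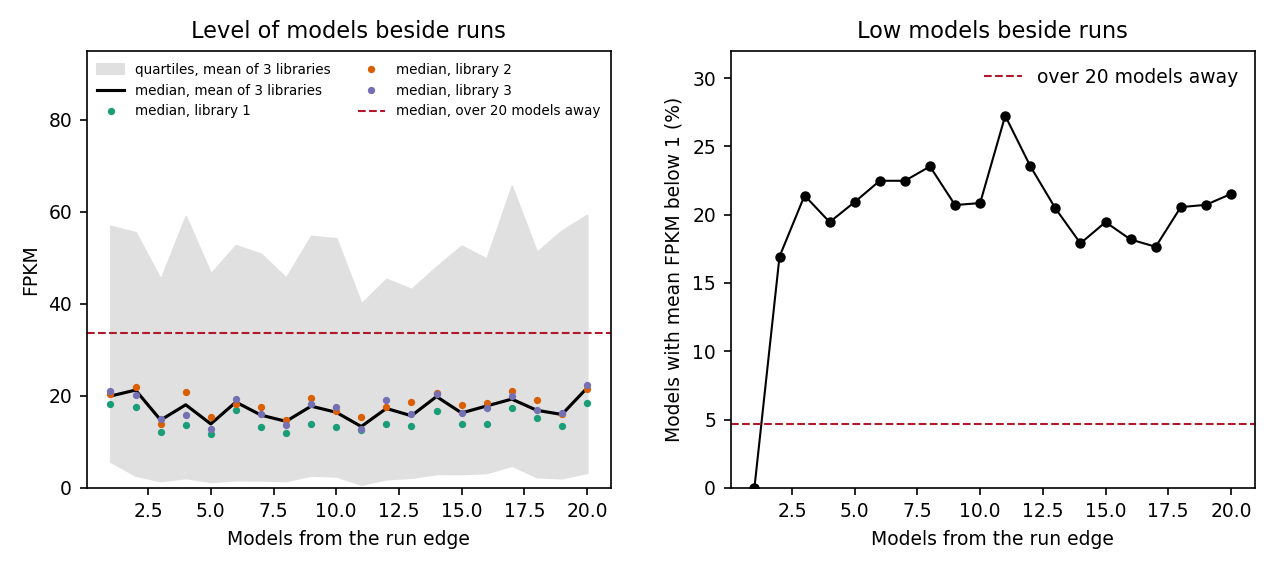
Left, FPKM (y) of the models at 1 to 20 models from the edge of a run (x), with the median (line) and quartiles (band) of the mean over libraries and the median in each library (points), and right, the percentage of these models with a mean FPKM below 1. Dashed lines give internal models more than 20 models away (33.7 FPKM and 4.66%), which by definition hold no run member. The medians beside runs lie below these lines, and the percentages from 2 models on lie above them. Models beside runs may be among the first or last 20 of a contig, whereas those of the dashed lines are not.

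Strong expression next to silent models did occur. The highest adjoining model was SRUG_02520 on contig 2, with 1010, 1629 and 1046 FPKM in libraries 1, 2 and 3 (mean 1228 ± 347, SD, n = 3). It follows a run of 9 models, SRUG_02511 to SRUG_02519, in which 8 had no count. SRUG_06690 on contig 7 had 818, 680 and 591 FPKM after 5 models without any count, SRUG_06685 to SRUG_06689. SRUG_00370 on contig 1 had 654, 476 and 613 FPKM before 4 models without a count, SRUG_00371 to SRUG_00374. Likewise SRUG_03781 on contig 3 had 643, 625 and 772 FPKM before SRUG_03782 to SRUG_03784, of which 2 had no count. SRUG_04038 on contig 4, before a run of 6, varied most between libraries, with 523, 174 and 1427 FPKM. In each of these places a model at 174 FPKM or more in every library stood next to a model with a mean below 1. On the other side of these 5 runs the adjoining models differed widely, with SRUG_02510 at 1.995 FPKM, SRUG_00375 at 1.74, SRUG_03785 at 1.73, SRUG_06684 at 29.9 and SRUG_04045 at 132.

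The numbering of the models gave a measure that the rule had not used. Model names skip some numbers, whereas the SRUG identifiers run without a gap in the same order. The sources used here do not say why numbers are skipped. Of the 678 steps between neighbours inside a run, 43 (6.34%) passed over at least 1 number, and 53 numbers were passed over in all. Of the 9467 internal steps that touched no run, 69 did so (0.729%), and at the edges of runs 11 of 252 (4.37%). The share inside runs was the higher in 14 of the 16 contigs, and in the others no step inside a run skipped a number. On contigs 8, 14 and 17 it rested on 1 skipped number each, in the runs from SRUG_07108, SRUG_10606 and SRUG_11429. It grew with run length, from 1 of 144 steps (0.694%) in runs of 3 or 4 models to 18 of 297 (6.06%) in runs of 5 to 9 and 24 of 237 (10.1%) in runs of 10 or more. The share in the shortest runs was thus near that of steps away from runs. The skips stood in 28 of the 130 runs. SRUG_06836 to SRUG_06847 on contig 7 had the most, with 7 numbers passed over between model 408 and model 426, and without this run the share was 5.85% (39 of 667). In that run 11 of 12 models had no count. Between low neighbours outside runs, 4 of 104 steps (3.85%) skipped a number, and between neighbours both above the threshold 52 of 8406 (0.619%). Steps share their contig and stretch, so they are not independent, and the shares are given without a test.

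The files give no gene lengths, but within a library the ratio of counts to FPKM is larger for longer models. It could be formed only for models with reads. Among the 56 members with at least 20 counts over the libraries, the median ratio was 1.11 times that of all models, with quartiles of 0.722 and 1.39. For the 9022 internal models above the threshold the values were 1.01, 0.653 and 1.45, and for 228 low models outside runs 0.876, 0.663 and 1.26. The quartiles overlapped throughout. The length of the 671 members without a count is unknown, and the members measured are those that had enough reads. At a low FPKM, long models reach 20 counts more readily than short ones, which raises the ratio of the low models kept. Whether members differ in length from other models therefore cannot be read from these ratios.

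A few members belong to peroxidase families. Manganese peroxidases are secreted heme enzymes that oxidise manganese, which in turn attacks lignin, and heme-thiolate peroxidases oxidise or halogenate small molecules with hydrogen peroxide. Of 17 manganese peroxidase models, 4 were members, and of 13 heme-thiolate peroxidase models looked up, 2 were. These lists include models that the rule leaves out, SRUG_04745 and SRUG_10902 of the former and SRUG_09264 and SRUG_11079 of the latter. Members were 7.76% of all internal models. The peroxidase shares are not read against this background, as the list was drawn up with earlier results known. The run SRUG_09291 to SRUG_09293 on contig 11 consisted of manganese peroxidase models alone. SRUG_09291 and SRUG_09292 had no count, and SRUG_09293 had 4, 26 and 0 counts in libraries 1, 2 and 3. After it came SRUG_09294 at 39.7 FPKM. SRUG_03862 on contig 4, the fourth of these models, had 6, 5 and 3 counts and headed a run of 7 in which 3 models had none. It stood behind SRUG_03861 at 37.9 FPKM. The heme-thiolate peroxidase models SRUG_01340 and SRUG_01341 had no count and lay in a run of 8 on contig 2. Neighbouring peroxidase models may be alike in sequence, and nothing says where reads that fit more than one of them were counted. A further 3 manganese peroxidase models of the interior were low but in no run, SRUG_07844 (0.692 FPKM), SRUG_09779 (0.514 FPKM) and SRUG_09835 (0.0520 FPKM). So were the heme-thiolate peroxidase models SRUG_01346 (0.0171 FPKM), SRUG_02749 (0.107 FPKM), SRUG_06742 (0.156 FPKM) and SRUG_06743 (0.0876 FPKM). None of the 4 models looked up of the family of ascorbate and cytochrome c peroxidases was a member. Among them SRUG_07017 on contig 7 was low (0, 0 and 0.0287 FPKM) but in no run. The paper reports more genes of this family and of the heme-thiolate peroxidases than were looked up, so neither tally covers its family. Of the 3 core genes of indole clusters, 2 lie on contig 12, outside the rule, and SRUG_11196 on contig 16 was low (0, 0.0594 and 0 FPKM) but stood in no run.

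Runs found in the same way in the interior of contigs 12 and 15, which the rule leaves out, took up a larger share of the models. Of 534 internal models there, 132 were in 20 runs (24.7%, against 7.76%), the longest of 18 models. No count was found for 79.5% of these and for 83.0% of the members. Of the 640 models in the first and last 20 of the 16 contigs, 184 were in runs (28.75%), and 79.9% of these had no count. These shares were not tested, as the level chose the runs.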

How the data were processed

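RNA of mycelia was sequenced in 3 libraries of 1 group. The authors deposited a table of counts per gene model and another per transcript, which differed in 0 cells, and an FPKM table in a pair of copies that differed in 0 cells. The deposited counts are whole numbers without normalization, and the authors computed the FPKM by library. No cell was 0 in just one of the FPKM and count tables. The submitters' processing notes name fastp, HISAT2 and StringTie. The paper names HISAT2, with its version, for mapping the mycelial reads to the assembly during gene prediction. Strand, the use of multi-mapped reads, the library total used for FPKM and the versions of the other tools were not found there. Columns were matched to libraries by the bracketed label in the sample title, and 0 columns were left over.

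Contig and model number were read from the model names. Runs were maximal stretches of at least 3 consecutive models with a mean FPKM below 1, found over whole contigs, and only models outside the first and last 20 were counted as members. The number expected in a random order was computed within contigs from the numbers of internal and low models. Distances were counted in models, up to 20. Alternatives were other thresholds, units, run lengths, end margins and low-level filters, TMM (edgeR 4.0.16) and DESeq2 1.42.0 rescaling, and each library left out. Runs broken at skipped numbers were added after seeing the data. No differential test was possible in 1 condition. The named models were the 10 longest runs (first, last and highest member), the 5 highest members, the 5 highest in 1 library, the 5 lowest and the 5 highest adjoining models, and members named in the paper or in the peroxidase list. Models beyond this rule were named after their values were seen. They were runs and models around the longest runs, runs that illustrate a count, members with identical counts, and the highest held-out values. Members, rule and lists were chosen with earlier results of these data known. The run finder was tested on simulated levels. Python 3.11.15, pandas 2.3.3, NumPy 2.4.6, matplotlib 3.10.9 and R 4.3.3 were used.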

Additional observations from a re-analysis of the deposited data

How the results depend on the processing

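The numbers of runs (130), members (808) and runs of at least 5 models (72) stayed within 1.5 times of these values under every threshold from 0.1 to 5 FPKM, under the TMM, DESeq2 and TPM scales, with 10 or 40 models left out at each contig end, and without each library in turn. Breaking runs at skipped numbers, an alternative chosen after seeing the data, gave 149 runs, 774 members and 69 runs of at least 5. Of all settings tried, 2 moved a number further. With stretches of at least 2 models, 234 runs were found. With the models without a count taken out of the order, 13 runs with 48 members remained, of which 2 held at least 5 models, since 671 members had no count. Without a library the numbers were 128 to 135 runs, 795 to 826 members, 71 to 75 runs of at least 5 and 678 to 696 members without a count. The median of the adjoining models lay between 18.5 and 20.9 FPKM. Over the libraries held out, 98.2% of member values were below 1 FPKM, and 96.7% in library 2. No paired analysis was possible because there is a single group. At these depths a model without a count may still have RNA below about 6 counts, and short models are limited most. Functional annotation, coordinates and sequences were not used here.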
